A study of Drosophila melanogaster with 10 samples.

Results

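T4 and T5 neurons are the first direction-selective neurons of the fly motion vision pathway. Each type has 4 subtypes, a to d, and the axons of each subtype end in a layer of their own in the lobula plate. Subtypes a and b send their axons to neighbouring layers and respond to opposite directions of horizontal motion, front-to-back and back-to-front. The comparison described here sets developing subtype a neurons against developing subtype b neurons, with T4 and T5 pooled.

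Cells came from pupae of *D. melanogaster* of 5 ages between 24 and 72 h, counted from puparium formation (h APF; 24, 36, 48, 60, 72), with 2 libraries at each stage and 10 in all. Subtypes a and b were taken from the same libraries, so both groups shared genotype, stage, dissociation and GFP sort. The genotype was the line SS00324-Gal4, recombined with the reporter UAS-mCD8::GFP. SS00324 is a split-Gal4 line that labels T4 and T5 neurons of every subtype, so the subtypes were told apart here only by their RNA. Unique molecular identifiers (UMIs), which count captured RNA molecules, were given per gene and cell barcode.

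Subtype a comprised 13396 cells and subtype b 12793 cells, together 26189 of 72871 barcodes. A cell needed at least 1000 UMIs, at most 10% of them on mitochondrial genes and at most 10% on heat-shock (Hsp) genes. It also needed at least 3 UMIs of *SoxN*, *Sox102F* and *Lim1*, transcription factors of T4/T5 neurons, no more than 1 UMI of *pros* and *bi*, and at least 2 UMIs of *dac*, *Dscam3*, *beat-IIIb* and *Fas2*. These steps left 27081 cells taken as subtypes a and b. Cells with at most 1 UMI of *grn* (a GATA factor), *Tl* (the receptor Toll) and *CG34353* together were assigned to subtype a, and cells with at least 3 to subtype b. Subtype a is therefore defined by the near absence of 3 transcripts. Just inside the limits, 53 to 418 cells of a library held exactly 1 UMI in subtype a and 6 to 348 held exactly 3 in subtype b. Between the limits, 18 to 291 cells of a library (892 in all) held 2 UMIs and were left out.

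The genes that chose the cells are described without a test. *grn* had 0.739, 3.19 and 18.9 CPM (a gene's UMIs scaled to the total of the summed cells; lowest, median and highest library) in subtype a, against 217, 409 and 1984 CPM in subtype b. For *Tl* the values were 3.14, 7.92 and 21.5 CPM in subtype a and 424, 544 and 1317 CPM in subtype b, and for *CG34353* 2.79, 9.68 and 35.2 CPM in subtype a and 281, 859 and 1580 CPM in subtype b. Among the genes that set a and b together apart from c and d, *Fas2*, the homophilic adhesion protein Fasciclin 2, was lower in subtype a in all 10 libraries, with 86.5, 386 and 1141 CPM in subtype a and 229, 879 and 2618 CPM in subtype b. *beat-IIIb* (619 against 487 CPM, medians) and *dac* (469 against 378 CPM) were higher in subtype a in 10 of 10 libraries. The T4/T5 factor *SoxN* was at like levels (2496 against 2428 CPM, medians). Both groups held neuronal transcripts such as *elav* (1001 against 1025 CPM, medians), whereas the glial list summed to 1.81 to 13.4 CPM in subtype a and 1.75 to 9.54 CPM in subtype b, and the haemocyte receptor gene *NimC1* had no UMI.

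The depths of the groups were close. The median number of UMIs per cell lay between 3084 and 8293 in the libraries of subtype a and between 3073 and 8251 in those of subtype b (exact sign-flip permutation test over the 10 libraries, two-sided, p = 0.477). Cells marked as likely doublets were fewer in subtype a in all 10 libraries, with 0.554 to 5.28% in subtype a and 1.61 to 13.5% in subtype b (exact permutation p = 0.00195, the smallest the test can give; 0.0293 after Benjamini-Hochberg adjustment over 15 such measures). The limits place a doublet of a subtype a and a subtype b cell in subtype b. The rule itself therefore bears on this difference, and the p-value does not measure a trait apart from the rule. Likely doublets were kept in the main comparison. Of the named genes called over all stages, *scro*, *dpr6*, *ap* and *shg* lost the call without them and are given with both values. The T5 markers *CG9008* and *CG34355* summed to medians of 61.9 CPM in subtype a and 42.2 CPM in subtype b (higher in a in 9 of 10 libraries, exact permutation p = 0.00391, adjusted 0.0293). *CG9008* had medians of 24.8 and 11.6 CPM (0.88, edgeR, adjusted p = 0.000311), whereas *CG34355* had 29.3 and 26.6 CPM (0.11, adjusted p = 0.559). The share of T4-like cells among typed cells was 79.8% in subtype a and 81.5% in subtype b (medians, exact permutation p = 0.0215, adjusted 0.0952). Cells were typed by captured UMIs of *TfAP-2* (T4) or the lower *CG34355* (T5), so this is not the share of T4 neurons. The part of type make-up in the results over both types was not tested, but both types are also compared apart. Between libraries, 626 barcode sequences occurred more than once. A sum over cells cannot tell more RNA per cell from more cells with the RNA.

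The UMIs of each subtype were summed in each library, and the 20 sums were compared within libraries by the quasi-likelihood test of edgeR. P-values were adjusted by Benjamini-Hochberg over all 7366 genes tested. Gene changes are log2 differences, subtype a minus subtype b, ± standard error (SE). A gene was called at an adjusted p under 0.05 and a change of at least 2-fold. Over all stages 104 genes (1.41% of those tested) were called, 25 higher in subtype a (0.339%) and 79 higher in subtype b (1.07%). An adjusted p under 0.05 alone was reached by 298 genes (4.05%), so most changes that passed were below 2-fold. The median log2 change of all genes was 0.0035. Of the called genes, 29 reached a mean of at least 20 CPM in the higher subtype, 12 in subtype a and 17 in subtype b. In 7 genes (0.0950%) the highest library of one subtype was below the lowest of the other: *kek1*, *dnt*, *if* and *CG32196* were higher in subtype a, and *beat-IV*, *ana* and *CR46232* were higher in subtype b (*CG32196* and *CR46232* were named after their values were seen). Without likely doublets 90 genes were called, 82 of which were among the 104.

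**Figure D1:**
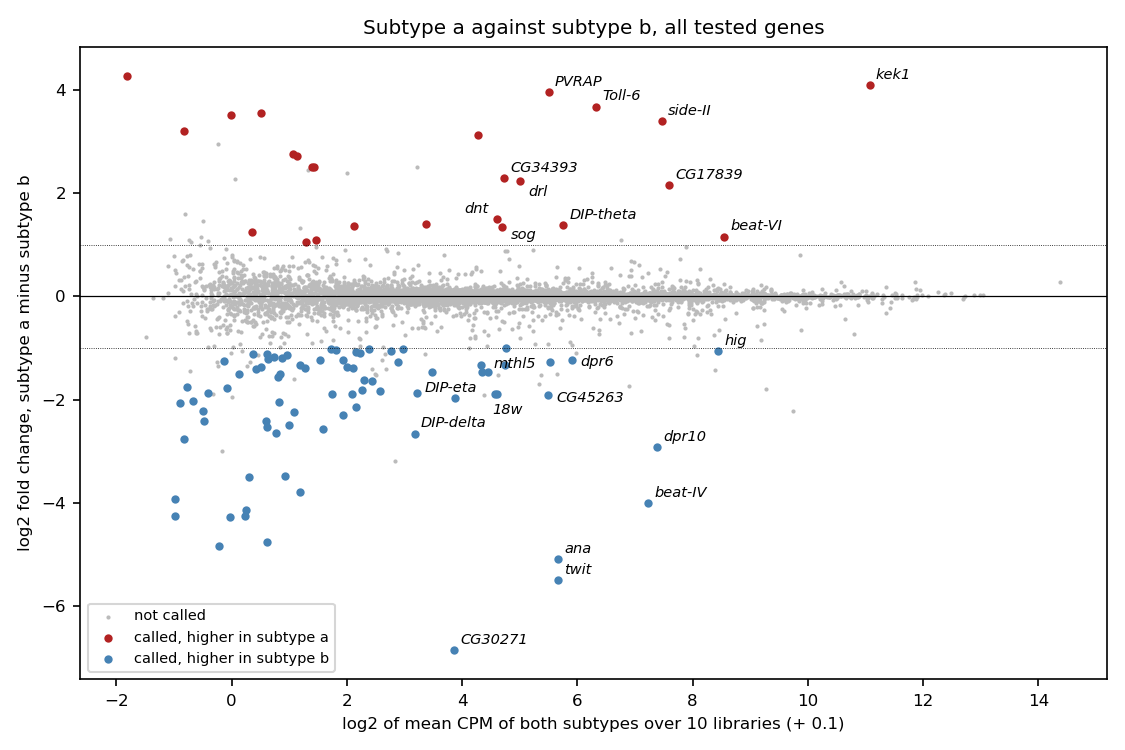
Log2 change (subtype a minus subtype b) of 7366 tested genes against the log2 of their mean CPM over both subtypes and 10 libraries. Each point is a gene, red where called higher in subtype a (25 genes) and blue where called higher in subtype b (79 genes), and dotted lines mark a 2-fold change. Most genes lie close to 0, and *kek1* stands alone among the called genes at the right, with its high level.

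*kek1* encodes a transmembrane protein with leucine-rich repeats and an Ig domain, which binds the EGF receptor. It had 4879 and 5045 CPM at 24 h, 5391 and 4538 CPM at 36 h, 4327 and 4010 CPM at 48 h, 3677 and 3545 CPM at 60 h, and 1795 and 2452 CPM at 72 h APF in subtype a. In subtype b the same libraries held 763 and 1054, 218 and 521, 120 and 216, 98.9 and 100.1, and 77.4 and 149 CPM. The lowest library of subtype a stood above the highest of subtype b, and both subtypes had less of it at 72 h than at 24 h. The log2 change was 4.10 ± 0.38 (edgeR, adjusted p = 0.000229). The gene lies on chromosome 2L at 12817000-12822787 (BDGP 6.54, minus strand).

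*side-II*, a member of the Sidestep family of Ig proteins that serve as partners of Beaten path proteins in axon guidance, had 66.4, 352 and 547 CPM (lowest, median and highest) in subtype a against 2.53, 28.8 and 76.4 CPM in subtype b. It was higher in subtype a in every library. Only the 60 h libraries of subtype a, at 75.6 and 66.4 CPM, lay below the highest value of subtype b, which was that of 36 h replicate 2. The change was 3.40 ± 0.27 (edgeR, adjusted p = 6.73e-05). *PVRAP*, named as an adaptor of the PDGF/VEGF receptor Pvr, had 186 and 179 CPM at 24 h, 117 and 103 CPM at 36 h, 1.28 and 2.36 CPM at 48 h, 37.9 and 41.2 CPM at 60 h, and 88.7 and 101 CPM at 72 h APF in subtype a. In subtype b it stayed between 0.750 and 16.1 CPM. At 48 h the gene was close to 0 in both subtypes and was not called, whereas it was called at the other 4 stages (3.96 ± 0.21 over all libraries, edgeR, adjusted p = 4.06e-06).

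A pair of genes of the Ryk family, receptors that bind Wnt proteins, were higher in subtype a. *drl* (derailed, a receptor of Wnt5) had 16.8, 39.3 and 119 CPM in subtype a and 3.87, 9.98 and 21.2 CPM in subtype b. The change was 2.23 ± 0.39 (edgeR, adjusted p = 0.0111), and it was widest at 60 h APF, where subtype a held 73.9 and 72.9 CPM and subtype b 4.02 and 5.51 CPM. *dnt* (doughnut) had 25.8, 33.3 and 45.8 CPM in subtype a and 5.81, 9.03 and 23.6 CPM in subtype b, without overlap (1.49 ± 0.27, edgeR, adjusted p = 0.0124). In subtype a the level of *dnt* varied less than 2-fold between stages, whereas subtype b held more at 24 and 36 h than later. The third member, *Drl-2*, was not called over all stages (0.07 ± 0.12, adjusted p = 0.957), but at 24 h it had 15.4 and 17.8 CPM in subtype a against 8.76 and 8.47 CPM in subtype b, a called change (1.01, edgeR, adjusted p = 4.21e-07).

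Another 4 genes chosen by the naming rule (called, the same direction in all 10 libraries and at least 20 CPM) were higher in subtype a. *sog*, which encodes a secreted antagonist of BMP ligands, had 134 and 133 CPM at 24 h in subtype a against 40.4 and 39.8 CPM in subtype b, and was below 2 CPM in both at 72 h. Its change was 1.35 ± 0.16 (edgeR, adjusted p = 0.000688). *beat-VI*, of the Beaten path family, had 1.10, 296 and 1427 CPM in subtype a and 0.231, 99.9 and 1256 CPM in subtype b, with a change of 1.16 ± 0.24 (edgeR, adjusted p = 0.0301). *CG34393* (2.29 ± 0.20, edgeR, adjusted p = 0.000108) and *CG17839* (2.16 ± 0.44, edgeR, adjusted p = 0.0243), which carry no gene name, had medians of 39.9 and 228 CPM in subtype a against 4.57 and 15.4 CPM in subtype b. In the annotation used for positions, *CG17839* overlaps *Stalker2{}1001* on the same strand, so its reads may be shared. The calls of *CG17839* and *beat-VI* were each lost when any of 6 libraries was left out (largest adjusted p 0.0582 and 0.0828). Below 20 CPM, *if*, an integrin alpha subunit named here only after looking at its values, had 2.25, 3.53 and 10.4 CPM in subtype a against 0, 0.726 and 1.93 CPM in subtype b (2.52 ± 0.24, edgeR, adjusted p = 4.79e-07).

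*beat-IV*, which encodes an Ig protein of the Beaten path family, was higher in subtype b at every stage. Libraries of subtype a held 32.7 and 28.2 CPM at 24 h, 12.2 and 60.5 CPM at 36 h, 5.30 and 4.09 CPM at 48 h, 7.39 and 5.24 CPM at 60 h, and 14 and 16.3 CPM at 72 h APF. Those of subtype b held 431 and 334, 392 and 422, 205 and 184, 164 and 173, and 210 and 288 CPM. The groups did not overlap at any stage, and the change was -4.01 ± 0.25 (edgeR, adjusted p = 1.4e-05). The gene lies on chromosome 3R at 23557412-23580077 (BDGP 6.54, plus strand). It thus went the opposite way to *beat-VI* of the same family.

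*ana* (anachronism), known for a secreted glycoprotein that keeps neuroblasts quiescent, had at most 4.91 CPM in any library of subtype a. In subtype b it had 11.8 and 17.3 CPM at 24 h, 43.8 and 28.1 CPM at 36 h, 25.2 and 24.2 CPM at 48 h, 128 and 147 CPM at 60 h, and 404 and 165 CPM at 72 h APF. Its change was -5.09 ± 0.51 (edgeR, adjusted p = 0.000349), and its level in subtype b was highest at 60 and 72 h. A pair of genes missed the naming rule because 1 library tied at 0 in both subtypes, and were chosen after their values were seen. *twit* (target of wit) had 6.10 and 9.99 CPM at 60 h in subtype a against 475 and 431 CPM in subtype b, and 0.622 and 0.608 CPM at 72 h in subtype a against 30 and 35.1 CPM in subtype b. At 24 and 36 h it was below 1 CPM in every library of both subtypes, and the overall change was -5.50 ± 0.30 (edgeR, adjusted p = 1.3e-05). *CG30271* never exceeded 0.732 CPM in subtype a and reached 97.6 and 70.4 CPM at 48 h in subtype b (-6.86 ± 0.27, edgeR, adjusted p = 3.61e-08). It overlaps *CG42284* on the same strand in the annotation used for positions.

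**Figure D2:**
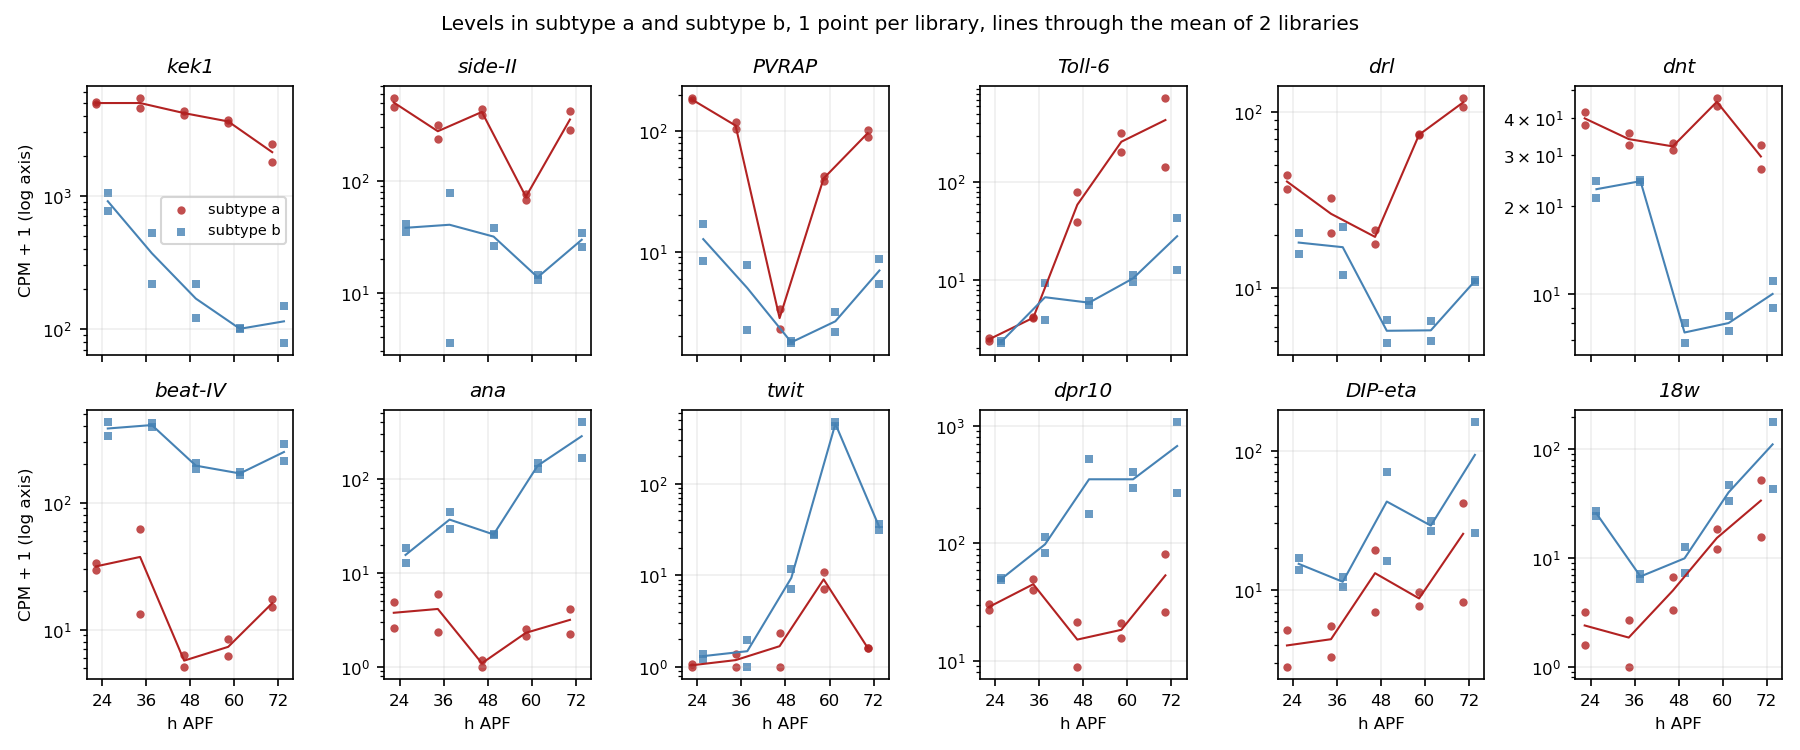
CPM + 1 on a log axis against hours APF for 12 genes, with subtype a (red circles) left of subtype b (blue squares), 1 point per library and lines through the mean of the 2 libraries of a stage. The upper genes are higher in subtype a and the lower genes in subtype b; *kek1* and *beat-IV* are apart at all 5 stages, while *twit* is near 0 in both subtypes at 24 and 36 h.

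Other genes named by the rule in subtype b included partners in the Dpr and DIP families of Ig proteins, which bind across families between neurons. *dpr10* had 26.1 and 29.6 CPM at 24 h, 49.0 and 39.0 CPM at 36 h, 20.5 and 7.91 CPM at 48 h, 14.6 and 20.2 CPM at 60 h, and 80.0 and 25.1 CPM at 72 h APF in subtype a. In subtype b it had 49.6 and 47.6, 113 and 81.2, 523 and 178, 295 and 406, and 1080 and 266 CPM. The subtypes were about 2-fold apart up to 36 h and more than 10-fold apart from 48 h on (-2.91 ± 0.53 over all libraries, edgeR, adjusted p = 0.0126). *DIP-eta* had 1.81, 6.28 and 41.4 CPM in subtype a and 9.51, 20.3 and 159 CPM in subtype b. It was lower in subtype a at each stage by a like factor (-1.89 ± 0.11, edgeR, adjusted p = 1.38e-07), although the ranges overlapped across stages. *dpr6*, whose product like that of *dpr10* binds DIP-alpha, changed by -1.22 ± 0.22 (edgeR, adjusted p = 0.0123), with medians of 18.9 CPM in subtype a and 47.1 CPM in subtype b. In 36 h replicate 2, the library with most likely doublets, it had 81.3 CPM in subtype a and 271 CPM in subtype b, and the change was -0.87 without likely doublets.

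*18w*, a receptor of the Toll family, had 0, 4.02 and 51.0 CPM in subtype a against 5.48, 24.7 and 177 CPM in subtype b, and was lower in subtype a in all 10 libraries (-1.88 ± 0.27, edgeR, adjusted p = 0.00314). *mthl5*, a G protein-coupled receptor of the Methuselah family, was lower in subtype a in every library (-1.27 ± 0.07, edgeR, adjusted p = 2.53e-09), with 0.608, 27.6 and 51.9 CPM in subtype a and 4.33, 59.8 and 124 CPM in subtype b. *hig* (hikaru genki), a secreted protein of the cleft of cholinergic synapses, was at 97.8, 193 and 618 CPM in subtype a and 268, 383 and 991 CPM in subtype b (-1.06 ± 0.15, edgeR, adjusted p = 0.0031). *CG45263* (-1.92 ± 0.26, edgeR, adjusted p = 0.00252) and *CG32052* (-1.32 ± 0.23, edgeR, adjusted p = 0.0115) had medians of 16.4 and 10.2 CPM in subtype a and of 93.1 and 32.1 CPM in subtype b. Both overlap other genes on their strand, so their reads may be shared. *scro*, an NK2-type homeodomain factor, had 0.499, 3.65 and 42.7 CPM in subtype a and 5.74, 23.0 and 115 CPM in subtype b, the highest of both in 36 h replicate 2. Its change was -1.47 ± 0.19 (edgeR, adjusted p = 0.00146) with, and -0.93 (adjusted p = 0.0335) without, likely doublets, which were more frequent in subtype b.

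Families of surface and signalling proteins were then read list by list. Of 228 genes on 15 lists, 222 were in the files and 186 had enough UMIs to be tested. Of these 186, 18 were called over all stages (9.68%, against 1.41% of all genes tested), 8 higher in subtype a and 10 in subtype b. At 1 or more stages 52 of the 186 were called, a mark that 310 of all 7366 genes (4.21%) reached. The median absolute log2 change was 0.18 over the tested listed genes and 0.050 over all tested genes. The lists were chosen with results of these data known, so these counts are a description.

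Among the lists, the DIP family held the largest share, with 4 of 6 tested members called over all stages, against 1.41% of all genes tested. *DIP-delta* had 0.250, 1.54 and 8.78 CPM in subtype a and 5.70, 13.1 and 34.9 CPM in subtype b, and was called at every stage (-2.66 ± 0.36, edgeR, adjusted p = 0.00224). *DIP-beta* was also lower in subtype a (-1.81 ± 0.33, edgeR, adjusted p = 0.00963), but at medians of only 0.853 CPM in subtype a and 5.93 CPM in subtype b. *DIP-theta* went the other way: at 48 h it had 174 CPM in both libraries of subtype a against 58.4 and 76.1 CPM in subtype b, and at 60 h 169 and 193 CPM against 58.4 and 78.3 CPM (1.39 ± 0.22 over all libraries, edgeR, adjusted p = 0.0103). At 24 and 36 h it was at or below 5.06 CPM in every library, and at 24 h it was called lower in subtype a (-1.77, edgeR, adjusted p = 0.00534). Of 21 tested Dpr genes, *dpr6*, *dpr10* and *dpr20* were called, all higher in subtype b. *dpr20* was a low gene, with medians of 1.0 CPM in subtype a and 4.45 CPM in subtype b (-1.62 ± 0.23, edgeR, adjusted p = 0.00044). A further 5 Dpr genes were called at some stage only. Among them *dpr5* had 3.66 and 5.73 CPM in subtype a against 96.8 and 68.3 CPM in subtype b at 48 h, and 77.8 and 96.2 CPM against 102 and 113 CPM at 72 h.

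Among 12 tested Beaten path and 8 tested Sidestep genes, *beat-VI* and *side-II* were called higher in subtype a and *beat-IV* higher in subtype b. *beat-VII* was called lower in subtype a at 24, 36 and 48 h, with 5.44 and 9.93 CPM in subtype a against 21.1 and 34.7 CPM in subtype b at 36 h, and 82.4 and 98.8 CPM against 71.1 and 95.4 CPM at 72 h. *side-IV* was called higher in subtype a at 60 h (47.3 and 40 CPM against 8.76 and 7.86 CPM, edgeR, adjusted p = 0.0206) and at 72 h APF. Of 14 leucine-rich repeat proteins, *kek1* and *Toll-6* were called in subtype a and *18w* in subtype b, with *caps*, *trn*, *kek3* and *Toll-7* called at a stage. *Toll-6*, a Toll receptor for Spätzle-type neurotrophins, had 1.40 and 1.57 CPM at 24 h, 3.17 and 3.07 CPM at 36 h, 77.6 and 38.3 CPM at 48 h, 201 and 316 CPM at 60 h, and 721 and 142 CPM at 72 h APF in subtype a. In subtype b it had 1.38 and 1.27, 2.95 and 8.41, 5.16 and 4.58, 8.61 and 10.2, and 42.5 and 11.6 CPM. At 36 h it was called lower in subtype a (-1.20, edgeR, adjusted p = 0.0404), where replicate 2 alone was lower, and from 48 h on it was higher in subtype a in every library (3.68 ± 0.46, edgeR, adjusted p = 0.00164).

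**Figure D3:**
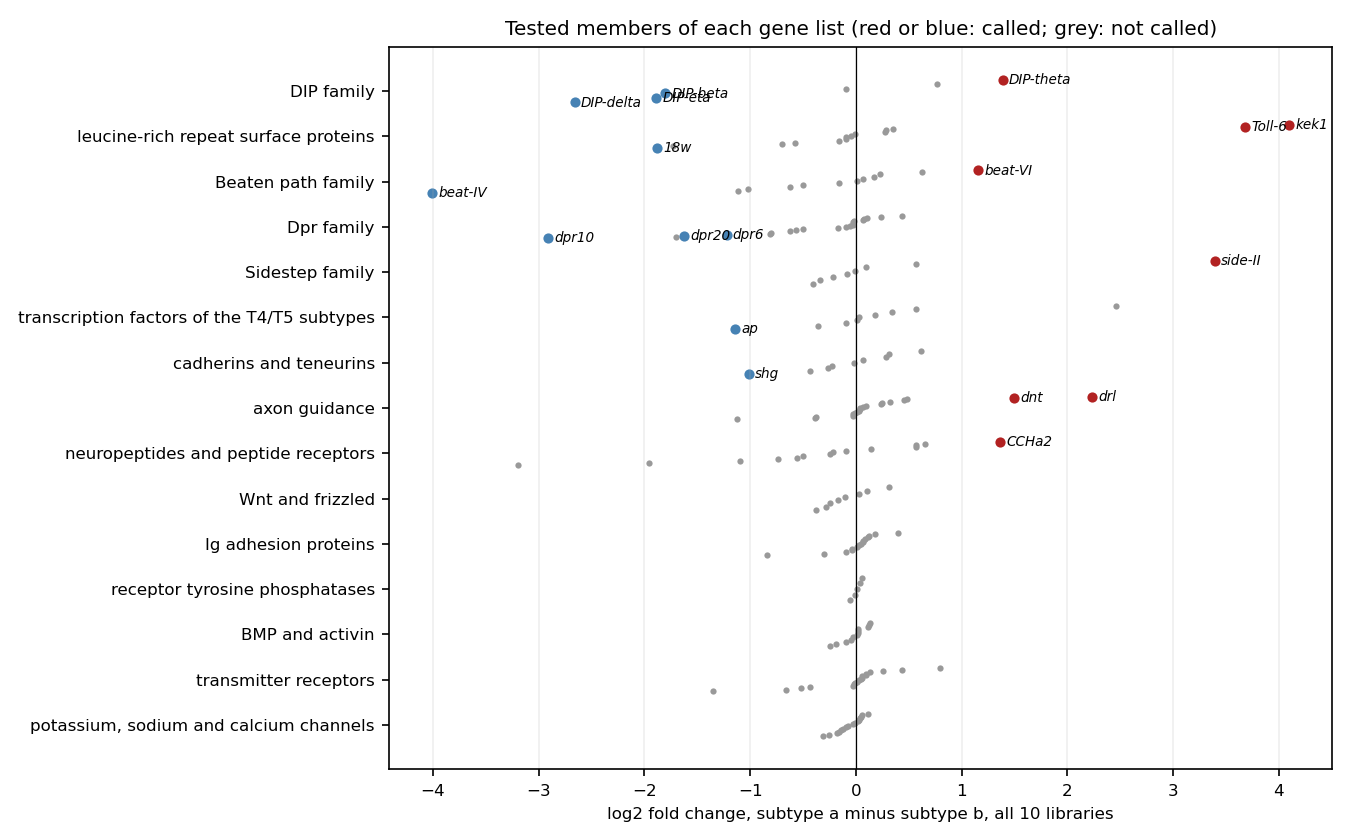
Log2 change (subtype a minus subtype b, all 10 libraries) of each tested member of 15 gene lists, 1 point per gene, red where called higher in subtype a, blue where called higher in subtype b and grey where not called. Called members of the Beaten path, DIP and leucine-rich repeat lists lie on both sides of 0, those of the Dpr list on the side of subtype b, and the receptor tyrosine phosphatases and BMP genes stay close to 0.

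Of 19 tested axon guidance genes only *drl* and *dnt* were called over all stages. Among the cadherins and teneurins *shg* (E-cadherin) alone was called, at medians of 2.43 CPM in subtype a and 4.12 CPM in subtype b (-1.02 ± 0.15, edgeR, adjusted p = 0.000179). It lost the call without likely doublets (-0.49, adjusted p = 0.0810), in T4-like cells alone (-0.70, adjusted p = 0.174) and in T5-like cells alone (-0.85, adjusted p = 0.664). No member of the Ig adhesion proteins (15 tested), Wnt and frizzled genes (8), receptor tyrosine phosphatases (5), BMP and activin genes (12), transmitter receptors (18) or ion channels (16) was called over all stages. At 1.41% of all genes few calls would fall in lists of this size, so the absence of calls is not read as a result about them. Single stages still held calls in these lists, except those of the phosphatases and of the BMP and activin genes. *GluClalpha*, the subunit of a glutamate-gated chloride channel, was higher in subtype a in all 10 libraries, with 441 and 514 CPM in subtype a against 138 and 197 CPM in subtype b at 24 h, but 1986 and 1984 CPM against 1720 and 1791 CPM at 72 h. It was called at 24 h (1.49, edgeR, adjusted p = 0.00362) and 36 h (1.19, edgeR, adjusted p = 0.00895) and missed the threshold over all stages (0.79 ± 0.19, adjusted p = 0.0521). *Dscam4*, an Ig adhesion protein of the Dscam family, was lower in subtype a in 10 of 10 libraries (-0.84 ± 0.15, edgeR, adjusted p = 0.0115), below the 2-fold limit over all stages. The ion channel gene *slo* was called lower in subtype a at 36 h APF. Replicate 2 had 27.2 CPM in subtype a against 64.9 CPM in subtype b, whereas replicate 1 was nearly level (21.8 against 24.9 CPM). *KCNQ*, another channel gene, was called lower in subtype a at 48 h, with 2.01 and 5.46 CPM in subtype a against 7.42 and 11.1 CPM in subtype b.

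Peptide genes differed at single stages. *sNPF*, the precursor of short neuropeptide F, had 28.5 and 27.8 CPM in subtype a against 84.9 and 98.6 CPM in subtype b at 24 h, 21.3 and 126 CPM against 64.5 and 384 CPM at 36 h, and 32.9 and 37.4 CPM against 98.9 and 99.9 CPM at 48 h. It was at like levels at 60 h (12.2 and 14.2 CPM against 11.5 and 13.2 CPM) and higher in subtype a at 72 h (39.2 and 25.9 CPM against 27.5 and 12.4 CPM). By the first typing rule described below, *sNPF* had medians of 19.8 and 29.0 CPM in T4-like cells of subtypes a and b, and of 19.4 and 412 CPM in T5-like cells. Under the second rule, which draws the types together, it changed by -1.12 in T4-like and -1.31 in T5-like cells. The difference of these changes was 0.19 ± 0.48 (edgeR, unadjusted p = 0.690). The change of *sNPF* over all libraries was -1.09 with and -0.70 without likely doublets. Its receptor gene *sNPF-R* was lower in subtype a in all 10 libraries (-0.55 ± 0.13, adjusted p = 0.0592) and called at 24 h (-1.17, edgeR, adjusted p = 1.59e-21). *Dh31*, a diuretic hormone, was at 2.96 and 2.75 CPM in subtype a against 65.6 and 60.2 CPM in subtype b at 60 h, and at or below 3.0 CPM in every other library of both subtypes. *CCHa2*, another neuropeptide, was called higher in subtype a (1.36 ± 0.20, edgeR, adjusted p = 0.000413) but had UMIs mainly at 48 and 60 h, with 26.4 and 20 CPM in subtype a against 8.61 and 9.24 CPM in subtype b at 60 h. *AstC-R2*, a receptor of allatostatin C, was called at 60 h (159 and 211 CPM against 75.6 and 106 CPM, edgeR, adjusted p = 4.01e-23).

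Of 9 tested transcription factors listed for T4/T5 neurons, *ap* (apterous, a LIM-homeodomain factor) was called at medians of 1.39 CPM in subtype a and 2.98 CPM in subtype b, and lost the call without likely doublets (-1.14 with them, and -1.03 with an adjusted p of 0.223 without). *ab* (abrupt) had 47.9, 105 and 424 CPM in subtype a against 47.6, 90.5 and 386 CPM in subtype b (0.18 ± 0.05, edgeR, adjusted p = 0.0454), and *zld* (zelda) 0, 1.83 and 385 CPM against 0, 2.64 and 278 CPM (0.35 ± 0.10, adjusted p = 0.106). Both were far below 2-fold. *Ets65A*, an ETS-domain factor, was called higher in subtype a at 24 h, with 19.4 and 7.31 CPM in subtype a against 4.61 and 0.876 CPM in subtype b (2.47, edgeR, adjusted p = 0.0178). Its call at 36 h (edgeR, adjusted p = 0.00825) rested on replicate 2, with 12.3 CPM in subtype a against 0.138 CPM in subtype b, as replicate 1 had no UMI in either. All cells of subtype a held 97 and 93 UMIs of *Ets65A* at 24 h and 100 in 36 h replicate 2. T4-like and T5-like cells of subtype a, typed by the first rule below, held only 14 and 15 over all libraries. Most of its UMIs thus lay in cells left untyped. At 48 h the ecdysone-induced factor *br* (broad) was called lower in subtype a, with 4.02 and 8.37 CPM in subtype a against 9.36 and 17.4 CPM in subtype b.

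Calls were then counted stage by stage. The 24 h libraries gave 89 called genes (1.21%), 29 higher in a (0.394%) and 60 in b (0.815%). The 36 h libraries gave 110 (1.49%), 24 in a (0.326%) and 86 in b (1.17%). In the 48 h libraries 139 were called (1.89%), 33 in a (0.448%) and 106 in b (1.44%). The 60 h libraries had 128 (1.74%), 49 in a (0.665%) and 79 in b (1.07%), and the 72 h libraries 111 (1.51%), 30 in a (0.407%) and 81 in b (1.10%). The count at 36 h fell to 59 without 36 h replicate 2 and to 72 without likely doublets, and that at 72 h fell to 57 without 72 h replicate 2. With 2 libraries per stage, each of these tests borrowed the spread of the other stages. Calls were common to all 5 stages in 14 genes, among them *kek1*, *CG34393* and *if* (higher in subtype a) and *beat-IV*, *ana*, *18w*, *DIP-delta*, *DIP-eta* and *2mit* (higher in subtype b); *2mit* was named after its values were seen. *CG12426*, another of the 14 and also named after its values were seen, overlaps the gating gene *CG34353* on the same strand and may carry its reads. Of the 310 genes, 157 were called at 1 stage only, and 16 were called in opposite directions at different stages. *dpr13* and *DIP-theta* were among both the 14 and the 16, *DIP-theta* at 36 h on 1.96 CPM in 1 library of subtype a. The test of an equal change at all stages was passed, as a difference between stages, by 621 genes (8.43%), including 27 of the 104 genes called overall.

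The 8 genes with the smallest p of that test all had at least 20 CPM at some stage, and *kuz*, *Toll-7*, *CG9331* and *CG42747* were nearly level at 24 h, with *CG42747* farthest from 0 at -0.22. *kuz*, an ADAM metalloprotease that cleaves Notch, had 272 and 289 CPM in subtype a against 244 and 267 CPM in subtype b at 24 h. At 60 h it had 79.6 and 85.9 CPM in subtype a against 1029 and 1092 CPM in subtype b (-3.66, edgeR, adjusted p = 1.51e-57), and at 72 h 199 and 132 CPM against 709 and 460 CPM. *Toll-7*, another Toll receptor, had 48.9 and 58.7 CPM in subtype a against 53.3 and 60.0 CPM in subtype b at 24 h, but 89.0 and 14.4 CPM against 1226 and 192 CPM at 72 h (-3.78, edgeR, adjusted p = 6.18e-53). Replicate 1 held more than replicate 2 at 72 h in both subtypes.

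*Gld2*, a cytoplasmic poly(A) polymerase, turned round between stages. At 24 h it had 59.1 and 50.7 CPM in subtype a against 31.4 and 34.9 CPM in subtype b (0.67), and at 48 h 0.549 and 1.91 CPM in subtype a against 83.3 and 108 CPM in subtype b (-6.06, edgeR, adjusted p = 2.03e-42). It then stood at 17.2 and 15.2 CPM against 76.2 and 80.2 CPM at 60 h and at 1.56 and 1.22 CPM against 51.0 and 53.7 CPM at 72 h, with a narrower gap at 60 h than at either neighbour. *CG9331* was lower in subtype a at 48 h, with 5.67 and 5.73 CPM in subtype a against 9.20 and 12.5 CPM in subtype b (-0.97, edgeR, adjusted p = 2.94e-05), and further apart at 60 h, with 2.59 and 1.75 CPM against 68.9 and 68.0 CPM. Over all libraries *CG9331* had medians of 5.28 and 134 CPM in T4-like cells of subtypes a and b. In T5-like cells these were 9.36 and 16.1 CPM. *CG42747* was the opposite case, with 86.1 and 95.1 CPM in subtype a against 6.32 and 4.13 CPM in subtype b at 60 h (4.08, edgeR, adjusted p = 5.64e-33).

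*Mp* (Multiplexin, a collagen of the XV/XVIII type) showed an early difference that shrank. It was lower in subtype a in all 10 libraries, with a change of -1.68 at 36 h, where subtype a held 115 and 279 CPM and subtype b 352 and 907 CPM, and of -0.13 at 72 h, where subtype a held 1970 and 1808 CPM and subtype b 2182 and 1946 CPM. *side*, the founding Sidestep gene, was lower in subtype a at 24 h (7.38 and 9.12 CPM against 46.6 and 42.8 CPM, edgeR, adjusted p = 6.57e-22) and 36 h, higher at 48 h (409 and 468 CPM against 252 and 325 CPM) and level at 72 h. *dpr11* likewise differed at 24 h (2.0 and 4.64 CPM in subtype a against 30.2 and 35.3 CPM in subtype b) and was nearly level at 72 h (-0.18). The remaining members of the 8, *beat-VI* and *dpr10*, changed most at 72 h (2.09) and at 48 h (-4.58).

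Among listed genes not called over all stages, *dpr13* and *kek3* were called in both directions. *dpr13* was higher in subtype a at 24, 60 and 72 h (58.2 and 60.4 CPM in subtype a against 8.76 and 10.0 CPM in subtype b at 60 h) and lower at 36 and 48 h (6.58 and 5.91 CPM against 14 and 23.4 CPM at 48 h). These values pool both types. In T4-like cells, typed as described below, *dpr13* had at most 8.76 CPM in any library of subtype a. Its change in T4-like cells alone was -1.45 over all libraries (edgeR, adjusted p = 0.0339). T5-like cells of subtype a reached 110 CPM. *kek3*, a relative of *kek1*, was lower in subtype a at 36 h (1.36 and 2.58 CPM against 7.16 and 7.44 CPM) and higher at 60 h (70.9 and 102 CPM against 30.3 and 45 CPM).

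**Figure D4:**
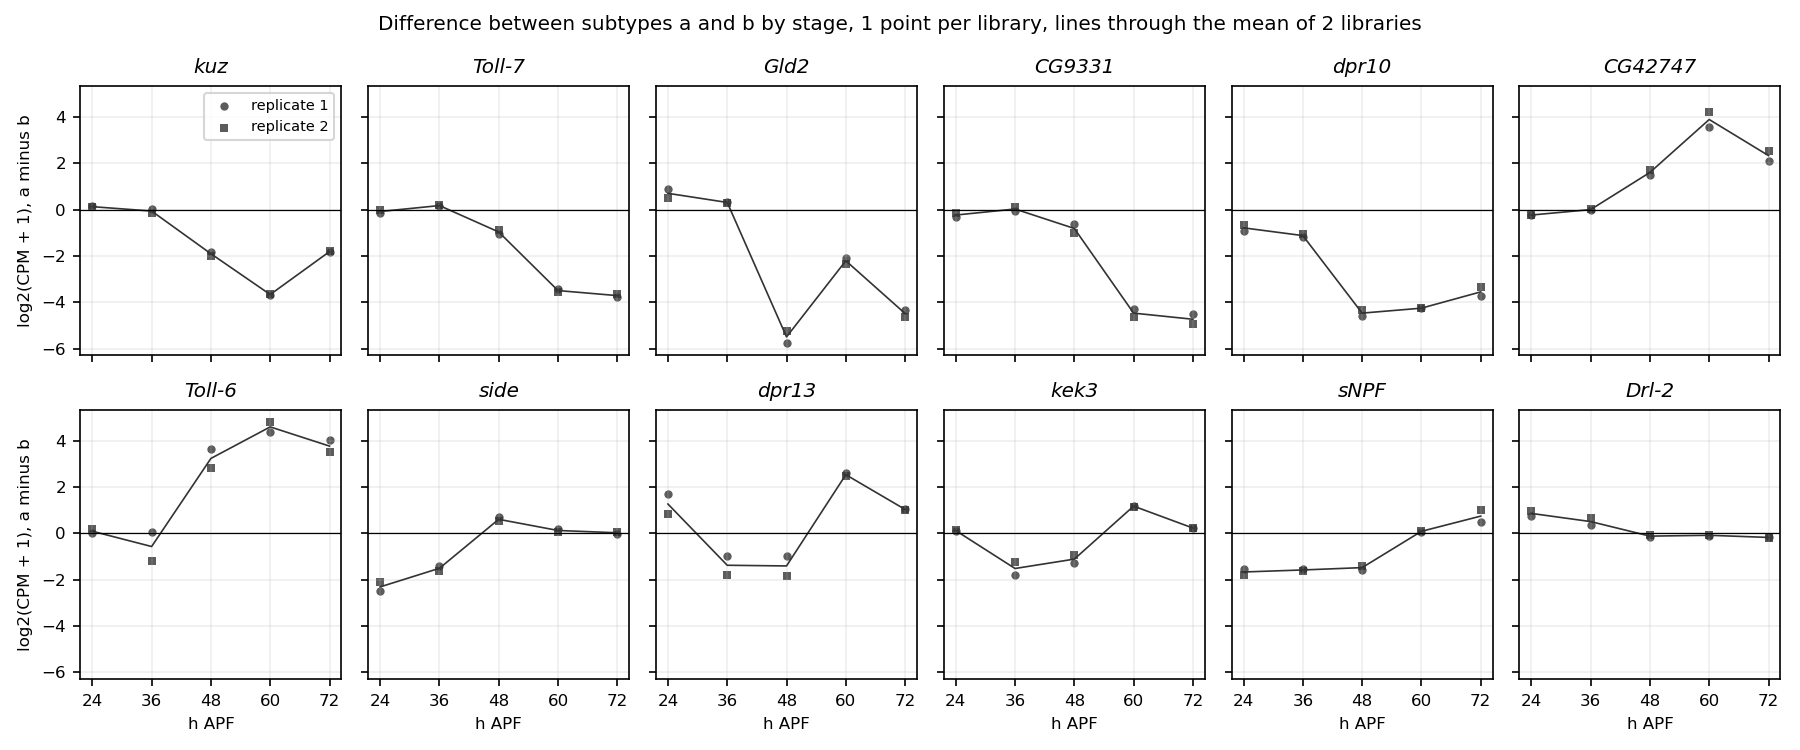
Difference of log2(CPM + 1), subtype a minus subtype b, against hours APF for 12 genes whose change varied with stage, with circles for replicate 1, squares for replicate 2 and lines through their mean. The replicates of a stage lie farthest apart for *Toll-6* at 36 h, *kuz*, *Toll-7*, *CG9331* and *CG42747* lie close to 0 up to 36 h, and *dpr13*, *side*, *kek3* and *sNPF* cross 0.

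Whether T4 and T5 neurons carry the same difference was asked by splitting each group. *TfAP-2*, a factor of T4 neurons, and *CG34355*, used as a marker of T5 neurons, gave 5221 T4-like and 1132 T5-like cells in subtype a and 4939 T4-like and 974 T5-like cells in subtype b, and the rest were left out. Between types, 9 of 6205 tested genes (0.145%) had a different a-minus-b change. A second rule was added after seeing how few T5-like cells this left: cells with at least 3000 UMIs were T4-like with a *TfAP-2* UMI and T5-like without one. It gave 4837 T4-like and 6818 T5-like cells in subtype a and 4713 T4-like and 6704 T5-like cells in subtype b. T4 cells in which no *TfAP-2* UMI was captured count as T5-like under this rule, which by construction draws the types together. *TfAP-2* had medians of 178 CPM in subtype a and 192 CPM in subtype b. Under the rule none of 7085 genes was called by edgeR after Benjamini-Hochberg adjustment, while 329 had an unadjusted p under 0.05.

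The 4 named genes of the first rule did not pass under the second, where such mixing lowers any difference between types. *bsh*, a homeodomain factor known from other optic lobe neurons, had 0, 0 and 2.43 CPM in T5-like cells of subtype a against 0, 17.1 and 104 CPM in T5-like cells of subtype b, and at most 2.81 CPM in T4-like cells of subtype a and 3.97 CPM in those of subtype b. Under the second rule its T5-like change was -0.89 (adjusted p = 0.218). *CG13698* changed by 0.42 in T4-like and -2.78 in T5-like cells under the first rule and by 0.21 and -1.12 under the second (difference 1.33 ± 0.37, edgeR, adjusted p = 0.562). *Scp2*, a calcium-binding protein, changed by -0.62 and 0.97 under the first rule and by -0.74 and 0.48 under the second (adjusted p of the difference 0.659). The UMIs of *Cpr51A* in T5-like cells of subtype a were uneven, with a median of 0 and a highest library of 260 CPM.

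Of 6 leading genes, 5 differed between the subtypes in both types under the first rule, each with an adjusted p under 0.05 in each type (edgeR). *kek1* changed by 3.42 in T4-like and 4.0 in T5-like cells, *side-II* by 3.13 and 3.09, *PVRAP* by 3.41 and 3.90, *beat-IV* by -4.0 and -3.89, and *dpr10* by -2.86 and -3.49. *ana* changed by -5.21 in T4-like cells and by -3.02 in the fewer T5-like cells, where it did not pass (adjusted p = 0.498). Under the second rule *ana* changed by -5.22 in T4-like and by -4.85 in T5-like cells (edgeR, adjusted p = 1.19e-05 in the latter). Those T5-like cells include T4 cells without a *TfAP-2* UMI. By the first rule its level also differed between types. In subtype b its medians were 63.8 CPM in T4-like and 5.15 CPM in T5-like cells, against 2.55 and 0 CPM in subtype a. Among the named genes called over all libraries, *DIP-theta* was the exception in sign under the second rule. Its change was -0.17 in T4-like (adjusted p = 1.0) and 1.42 in T5-like cells (adjusted p = 6.11e-05), a difference of -1.59 ± 0.48 that did not pass adjustment (adjusted p = 0.738). By the first rule *DIP-theta* had medians of 1.43 and 2.80 CPM in T4-like cells of subtypes a and b, against 72.8 and 18.7 CPM in T5-like cells. *DIP-eta* also turned sign in T5-like cells of the first rule (0.50, adjusted p = 0.846), but not under the second, where it changed by -1.80 in T4-like and -1.96 in T5-like cells.

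**Figure D5:**
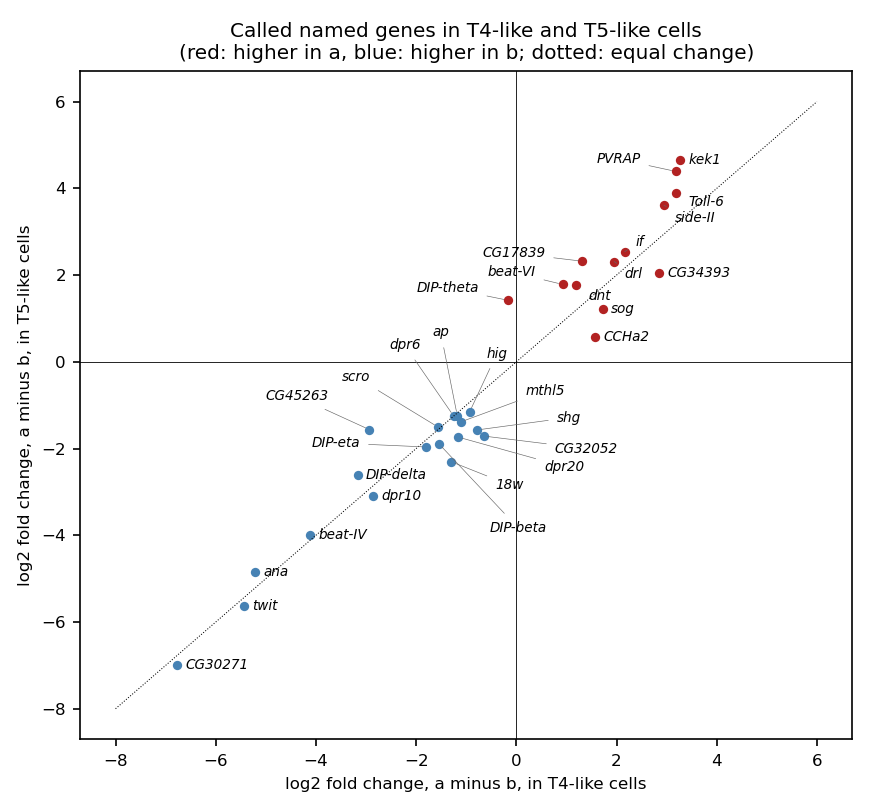
Log2 change (subtype a minus subtype b) in T5-like against T4-like cells, typed by *TfAP-2* in cells of at least 3000 UMIs, for the named genes called over all libraries, red where higher in subtype a and blue where higher in subtype b. The dotted line marks equal change, near which T4 cells without a *TfAP-2* UMI, counted as T5-like, would also place a gene; *DIP-theta* alone changes sign.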

How the data were processed

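Single-cell RNA of GFP-sorted T4/T5 neurons was measured in 10 libraries (10x Genomics). The authors deposited whole-number counts: the UMIs of each of 17757 genes in each barcode, not normalized, made with Cell Ranger 3 and Ensembl 97. The libraries hold 12798989 to 62530395 UMIs. Cells were gated as described, and UMIs were summed per library and subtype. CPM are relative to all UMIs of a sum. The 12 gating genes and 56 mt: and Hsp genes were not tested.

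Sums were fitted with edgeR (4.0.16; TMM, filterByExpr, robust quasi-likelihood) in R (4.3.3), with the library as a block. Stage changes and their F-test came from 1 model of the 20 sums. DESeq2 (1.42.0), other filters, gates and depths, and the omission of each library were alternatives. Doublets were scored with Scrublet in scanpy (1.11.5) and the highest scores marked, at 0.8% of the barcodes per 1000 barcodes. Scripts ran in Python (3.11.15) and were tested on simulated data. Nothing in the labels says that the libraries came from separate animals, although the study calls them biological replicates, so p-values measure the spread between libraries.

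The library pairs a and b by construction. Over 5324 genes, the replicate differences of a and b correlated with r = 0.59, 0.77, 0.92, 0.44 and 0.91 from 24 to 72 h APF.

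Named were the called genes with the same sign in all 10 libraries and at least 20 CPM (up to 12 per direction), the 8 with the smallest stage p, the 4 with the smallest type p, *side-II*, *beat-IV*, *kek1*, *ab* and *zld*, and listed genes called overall or at a stage; genes chosen after seeing values are marked. The rule for the cells, the gene lists and the tests were chosen with earlier results of these data known. Gene overlaps are from Ensembl 115 (BDGP 6.54), a later release than the authors used.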

Additional observations from a re-analysis of the deposited data

Results flagged for a closer look

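The change between subtypes a and b differed between stages for many of the named genes. Adjusted p below is that of edgeR's F-test of equal change at the 5 stages, over all 7366 genes tested. Stage changes are log2, a minus b.

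Among genes higher in subtype a over all libraries, the change differed between stages for *CG34393* (adjusted p = 4.02e-05), *drl* (8.43e-23), *CG17839* (2.35e-28), *dnt* (3.73e-15), *sog* (4.32e-05), *beat-VI* (7.96e-37), *DIP-theta* (1.34e-06) and *Toll-6* (7.86e-13). *CG17839* changed by 0.56 at 24 h and 4.04 at 48 h. *dnt* changed by 0.53 at 36 h and 2.68 at 60 h, and *sog* by 1.75 at 24 h and 0.61 at 48 h. *DIP-theta* and *Toll-6* were each called in subtype b at an early stage, at levels below 10 CPM.

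Among genes higher in subtype b over all libraries, this held for *ana* (1.63e-11), *dpr10* (1.66e-36), *18w* (3.48e-06), *mthl5* (0.0487), *dpr6* (9.16e-16), *DIP-beta* (0.00126) and *twit* (0.0034). *18w* was farthest from 0 at 24 h (-3.76) and *mthl5* at 72 h (-2.46), whereas *dpr6* was nearest to 0 at 72 h (-0.47). *ana* changed by -2.25 at 24 h and -7.04 at 72 h.

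Genes not called over all stages made up the rest. Those with the smallest p were *kuz* (7.09e-51), *Toll-7* (8.91e-42), *Gld2* (8.54e-41), *CG9331* (5.13e-38), *CG42747* (1.18e-36) and *Mp* (2.38e-35). Among surface protein genes they were *side* (1.72e-30), *side-IV* (0.0162), *beat-Ib* (0.00228), *beat-Ic* (9.53e-05), *beat-VII* (2.13e-14), *dpr5* (0.0167), *dpr8* (0.0142), *dpr11* (2.98e-19), *dpr13* (2.31e-25), *caps* (0.0143), *trn* (0.00771), *kek3* (2.9e-16) and *Dscam4* (2.04e-19). *caps* and *trn*, which encode leucine-rich repeat proteins, were lower in subtype a at 72 h (-1.56 and -2.30), at no more than 7.97 CPM in any library. At 36 h the replicates differed. Replicate 1 was lower in subtype a (*caps* 0.454 against 2.11 CPM, *trn* 1.36 against 5.48 CPM). Replicate 2 was nearly level (7.24 against 6.34 CPM and 6.25 against 5.38 CPM).

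Among guidance, Wnt and cadherin genes the test passed for *Sema2b* (2.47e-10), *Drl-2* (1.17e-09), *Wnt4* (0.00787), *CadN2* (0.00653) and *Cad88C* (0.00773). *Sema2b*, a secreted semaphorin, was higher in subtype a at 60 h (1.21), with 106 and 112 CPM in subtype a against 45.4 and 50.5 CPM in subtype b. Among channels, receptors and peptides it passed for *GluClalpha* (0.0241), *KCNQ* (0.00641), *slo* (6.78e-08), *sNPF* (1.41e-22), *sNPF-R* (1.18e-17), *Dh31* (2.62e-06), *Tk* (0.00233) and *AstC-R2* (4.17e-12). *Tk*, a tachykinin precursor, had no library above 7.97 CPM. It also passed for the transcription factor genes *ab* (0.000331) and *br* (0.000106), for *CG13698* (1.41e-05) and *Scp2* (0.00874), and for *Pura* (4.18e-16) and *rdo* (1.15e-13), the last pair chosen after their values were seen.

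Between T4-like and T5-like cells the change differed for *CG13698* (adjusted p = 7.85e-08), *Scp2* (2.49e-05), *bsh* (0.000524) and *Cpr51A* (0.000524; edgeR, 6205 genes). None of these passed when cells were typed by *TfAP-2* alone.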

How the results depend on the processing

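Of the 104 genes called over all libraries, 25 were higher in a and 79 in b. Leaving out 1 library at a time gave 21 to 29 and 67 to 89. Without the library block (the pairing of a and b within libraries), 16 genes were called higher in a and 45 in b, the stages gave 16, 17, 36, 36 and 31 from 24 to 72 h, 19 genes changed between stages and 1 between types. With every cell thinned to 1000 UMIs, which kept 19.79% of the UMIs, these counts were 14, 27, 50, 42, 71, 70, 70, 307 and 5. DESeq2 gave 48, 61, 86, 85 and 63 by stage, 325 between stages and 16 between types. T4-like cells alone gave 44 higher in b, 59 at 36 h, 75 at 60 h and 339 between stages. T5-like cells alone gave 11 higher in a, 62 at 60 h, 36 at 72 h and 206 between stages. Without likely doublets 72 were called at 36 h and 23 between types. The count between types was 70 with no filter on low counts, 5 in cells of 3000 to 10000 UMIs, 21 with the stricter gate between a and b and 0 with *TfAP-2* alone. The cause of these shifts was not tested, except that fewer cells or UMIs enter the thinned and single-type sums. Leaving out 1 library gave 73 to 102 (24 h), 59 to 115 (36 h), 109 to 147 (48 h), 91 to 139 (60 h) and 57 to 121 (72 h), 491 to 747 between stages and 7 to 15 between types. The 59, 57 and 15 were those without 36 h replicate 2, 72 h replicate 2 and 36 h replicate 2.

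Of the 29 called genes with at least 20 CPM, 21 to 29 kept their call under each alternative. Signs turned, relative to the log2 change over all libraries, in these cases. In T5-like cells alone they were *DIP-eta* (0.51), *CG42747* (-0.10), *side-IV* (-0.089), *beat-Ic* (0.32), *trn* (0.094), *kek3* (-0.11) and *Drl-2* (-0.0012). In T4-like cells alone they were *CG13698* (0.42), *Scp2* (-0.63), *side* (0.037), *dpr13* (-1.45), *DIP-theta* (-0.10) and *NetB* (0.82). *beat-Ic* was at 0.54 in cells of 3000 to 10000 UMIs, 0.035 without likely doublets, and between -0.42 (without 48 h replicate 2) and 0.24 (without 72 h replicate 2) with 1 library left out, above 0 also without 60 h replicate 1 (0.021). *trn* was at 0.31 when thinned, *kek3* at -0.013 without the block and -0.22 by DESeq2, and *Pura* at 0.10 by DESeq2. Of these only *DIP-eta* and *DIP-theta* were called over all libraries.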

Other observations

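The 16 genes called in opposite directions at different stages included a pair outside the lists, chosen after their values were seen. *rdo*, a leucine-rich repeat protein, was lower in subtype a at 24 h, with 1.80 and 2.83 CPM in subtype a against 10.6 and 19.4 CPM in subtype b (-2.70, edgeR, adjusted p = 7.82e-15). At 72 h it was higher in subtype a, with 5.29 and 9.0 CPM against 2.73 CPM in both libraries of subtype b (1.52, edgeR, adjusted p = 0.000122). *Pura* went the other way, called higher in subtype a at 48 h (1.33, edgeR, adjusted p = 0.000651) at levels below 5 CPM, and lower at 72 h, with 42.3 and 15.3 CPM in subtype a against 140 and 57.6 CPM in subtype b (-1.82, edgeR, adjusted p = 1.36e-23).

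*robo2*, a receptor of the midline repellent Slit, was level at 24 h (543 and 705 CPM in subtype a against 549 and 721 CPM in subtype b) and nearly absent at 48 and 60 h. It was higher in subtype a at 72 h, with 150 and 53.5 CPM in subtype a against 58.9 and 22.7 CPM in subtype b (1.29, edgeR, adjusted p = 0.0133).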
